A study of Homo sapiens with 4 samples.

Results

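The TCF and LEF transcription factors and the cofactors they share were followed as 9 genes, 4 factors (TCF7, LEF1, TCF7L1 and TCF7L2), 2 Groucho corepressors (TLE1 and TLE3) and 3 coactivators (BCL9, BCL9L and PYGO2). They were taken by symbol from a list of names, all 9 were found among the 33538 genes counted, and the rule names genes without using their values, although the list was drawn up with earlier results of these data known. UMIs, the distinct mRNA molecules counted by their barcodes, were summed in each library over cells that had 200 or more detected genes, 500 or more UMIs and less than 5% mitochondrial UMIs. The level of a gene is given in CPM, the UMIs of the gene per 1000000 UMIs of those cells.

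The cells were HCEC 1CT, 1 line of human colonic epithelial progenitor cells that was immortalised with TERT and CDK4. All 4 groups had been transduced with an shRNA virus and kept in puromycin, with an shRNA that targets APC in the shAPC cells and a scrambled one in the control shScr cells. Harvest was at 3 or 7 days, which gave 4 groups of 1 droplet library each. Where 4 values follow one another, they stand in the order shScr and shAPC at day 3, then shScr and shAPC at day 7, called library order. The virus is described as retroviral in one source and lentiviral in another. No group has a second culture or library, so every interval below is a 95% interval of counting error alone and no test between groups was made.

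TCF and LEF proteins bind DNA through an HMG box and carry the output of the Wnt pathway to chromatin. Without a Wnt signal they hold TLE corepressors at target genes, and when APC and its partners fail to degrade beta-catenin, beta-catenin displaces TLE and brings in BCL9 proteins, which in turn hold PYGO proteins. TCF7L2 (TCF4) is the main member in the colonic epithelium, TCF7L1 acts mostly as a repressor, and TCF7 and LEF1 are known Wnt target genes in several tissues.

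Promoter sequence is shown for the factors that differed most between shAPC and shScr, TCF7 and LEF1, and for the window of TCF7L2 that holds a TCF/LEF motif. The windows are RefSeq promoters of GRCh38.p14, 250 bases before and 50 bases after a gene's start, written 5′ to 3′ on the gene's own strand. TCF7 has 2 such starts, at chr5:134115363-134115662 and chr5:134123368-134123667, both on the plus strand and both within the gene. LEF1 has 1, at chr4:108166252-108166551 on the minus strand and also within the gene. The TCF7L2 window lies inside its gene at chr10:113126383-113126682 on the plus strand. Capitals mark a match to one of the TCF/LEF core motifs CTTTGAA or CTTTGAT, or to their variants CTTTGTA or else CTTTGTT, on either strand.
TCF7 upstream start: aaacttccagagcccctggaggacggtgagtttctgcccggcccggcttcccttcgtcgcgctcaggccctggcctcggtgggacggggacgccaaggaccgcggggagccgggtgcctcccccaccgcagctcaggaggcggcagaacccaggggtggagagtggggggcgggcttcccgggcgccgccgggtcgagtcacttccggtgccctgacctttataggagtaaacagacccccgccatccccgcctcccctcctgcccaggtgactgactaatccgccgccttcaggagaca
TCF7 downstream start: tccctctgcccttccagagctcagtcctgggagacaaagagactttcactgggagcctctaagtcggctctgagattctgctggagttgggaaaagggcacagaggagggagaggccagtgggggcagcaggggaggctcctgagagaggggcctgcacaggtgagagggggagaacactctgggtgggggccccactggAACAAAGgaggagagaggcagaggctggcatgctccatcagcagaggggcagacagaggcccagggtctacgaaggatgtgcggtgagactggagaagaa
LEF1: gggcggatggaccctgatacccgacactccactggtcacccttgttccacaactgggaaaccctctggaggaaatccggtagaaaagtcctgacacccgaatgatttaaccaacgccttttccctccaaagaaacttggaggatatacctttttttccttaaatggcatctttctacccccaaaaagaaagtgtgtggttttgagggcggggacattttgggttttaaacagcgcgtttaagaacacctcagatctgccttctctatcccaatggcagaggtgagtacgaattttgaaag
TCF7L2 internal start: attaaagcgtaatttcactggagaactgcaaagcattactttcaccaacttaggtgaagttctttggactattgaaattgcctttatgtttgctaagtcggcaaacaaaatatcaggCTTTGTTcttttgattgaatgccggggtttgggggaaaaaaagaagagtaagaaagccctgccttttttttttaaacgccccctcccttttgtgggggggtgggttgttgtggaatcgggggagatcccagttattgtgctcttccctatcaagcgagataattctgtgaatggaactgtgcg
The match in TCF7 lies on the reverse strand (AACAAAG) and begins 50 bases before the downstream start, and the match in TCF7L2 (CTTTGTT) begins 133 bases before the internal start. No match was found in the upstream TCF7 window or in that of LEF1. The 5′ ends of the whole genes, chr5:134114681 for TCF7 and chr4:108168956 for LEF1, lie outside these windows and were not searched. Of 13 windows of 8 members, these 2 held a match, whereas 4829 of 35116 windows of that length (13.8%) held at least 1, so that matches were about as frequent as in promoters at large. The deposited counts are made from the 3′ ends of transcripts and do not tell which start a molecule came from.

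The targeted gene APC was first checked in every library. APC stood at 16.1 CPM in shScr day 3, 5.52 in shAPC day 3, 19.1 in shScr day 7 and 6.61 in shAPC day 7, which is lower in shAPC by 2.91-fold at day 3 and 2.89-fold at day 7. AXIN2, a feedback inhibitor and TCF/LEF target, was counted 14, 57, 4 and 117 times in the same order, and NKD1, another feedback target, 1, 12, 7 and 59 times. Both were thus higher in shAPC at each day.

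The 4 libraries kept between 788 and 2600 cells and between 28451455 and 39797418 UMIs, and their cells differed in depth. The median ran from 1330 UMIs per cell in shScr day 7 to 49685.5 in shAPC day 3, and 1402 of the 2600 cells of shScr day 7 held fewer than 2000 UMIs. The limits on cells removed 51.3% of the barcodes of shAPC day 7 and 24.1% to 28.8% of the other libraries. Pairs of libraries shared between 1 and 19 cell barcodes. The count matrices of both shAPC libraries were written by Cell Ranger 3.0.0 and those of both shScr libraries by 3.0.2, so the software version and the shRNA cannot be told apart.

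Of the markers of the labelled cell type, KRT8, KRT18, KRT19 and CLDN7 were counted in the libraries, while EPCAM and CDH1 stood at 2 UMIs or fewer. Intestinal genes (CDX1, CDX2, VIL1 and LGR5) summed to between 1 and 3 UMIs per library, and CDX2, the intestinal identity factor, was at 0 in all 4. The 6 epithelial markers summed to 49.2 CPM in shAPC day 3 and to 29.1 CPM or less in the other libraries. VIM, FN1, COL1A1 and CDH2, markers of mesenchymal cells, summed to between 8021 and 10431 CPM. Nearly all of this came from VIM, FN1 and COL1A1. CDH2 was at 7.69, 3.86, 6.40 and 3.66 CPM in library order, lower in shAPC at each day. TCF7 and LEF1 are also genes of lymphocytes, and the 5 T cell markers (PTPRC, CD3D, CD3E, CD3G and CD2) summed to 0, 0, 0 and 1 UMI in library order. The 3 haemoglobin genes summed to between 9 and 54 UMIs.

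Across the 9 genes, levels spanned from 0.176 CPM for LEF1 in shScr day 3 to 43.8 CPM for BCL9L in shAPC day 3. In every library BCL9L was the highest and LEF1 the lowest. TLE1 came second in each library and TCF7L2 next. In shAPC day 7 the intervals of TLE1 (15.2 to 18.2 CPM) and TCF7L2 (14.3 to 17.2 CPM) overlapped, and in shAPC day 3 those of TCF7L2 (9.92 to 12.1 CPM) and TLE3 (9.46 to 11.6 CPM) did. TCF7, TCF7L1 and BCL9 lay close together between 1.09 and 2.99 CPM. A 3′ UMI count does not grow with transcript length, but the efficiency of capture can differ between genes, so the order describes molecules recovered.

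**Figure D1:**
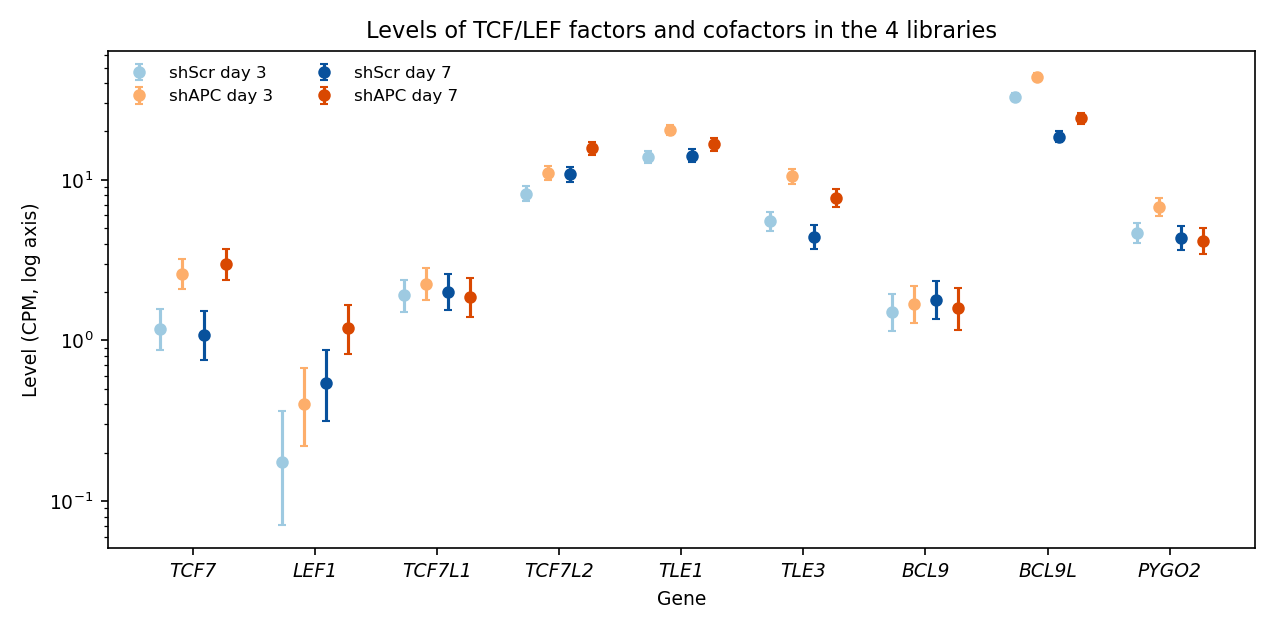
Level of each of the 9 genes (horizontal axis) in CPM on a log axis, with 1 point per library and bars for the exact Poisson 95% interval of counting error. TCF7 and TLE3 sit higher in the shAPC library at both days, LEF1 climbs from 0.176 CPM in shScr day 3 to 1.20 CPM in shAPC day 7, and BCL9L sits lower in both day 7 libraries.

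TCF7, which encodes TCF1, had the largest log2 ratio of shAPC over shScr among the members at day 7, and the largest after LEF1 at day 3. It was counted 47 times in shScr day 3 (1.18 CPM), 91 times in shAPC day 3 (2.60 CPM), 34 times in shScr day 7 (1.09 CPM) and 85 times in shAPC day 7 (2.99 CPM). The 2 shAPC libraries were the higher ones, and their Poisson intervals did not overlap those of the shScr libraries. The log2 ratio of shAPC over shScr was 1.14 (0.62 to 1.68) at day 3 against 1.46 (0.87 to 2.08) at day 7. With the mean over cells of each cell's CPM, in which shallow cells weigh as much as deep ones, the day 7 ratio of TCF7 was 0.43. Between the days TCF7 had a log2 ratio of day 7 over day 3 of -0.12 (-0.80 to 0.55) in shScr and 0.20 (-0.25 to 0.64) in shAPC, the latter 0.50 (0.06 to 0.95) relative to the median gene.

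The size of the day 3 ratios depends on how the libraries are scaled, because the median gene itself was higher in shAPC. Over 14505 genes with at least 20 UMIs in both libraries together, the median log2 ratio was 0.35 at day 3, against a median of -0.00 over 13983 genes at day 7. Relative to the median gene TCF7 was at 0.79 at day 3 and 1.46 at day 7, and LEF1 at 0.84 and 1.13. The median of day 7 over day 3 was 0.04 in shScr and -0.31 in shAPC. Values relative to the median gene are therefore given below beside the plain ratios of day 3 and of day 7 over day 3 in shAPC, the comparisons with the large shifts.

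The 3′ end of TCF7 (GRCh38 chr5:134114681-134151865, plus strand) overlaps that of SKP1, a ubiquitin ligase subunit on the opposite strand, by 2931 bases. SKP1 was chosen for a look after its values were seen. It was counted between 8307 and 11991 times per library, and its log2 ratio of shAPC over shScr was 0.20 at day 3 and -0.20 at day 7. The number of SKP1 UMIs per TCF7 UMI was 252 and 308 in the shScr libraries of day 3 and day 7, and 132 and 97.7 in the shAPC libraries. Whether the counting used strand is not given in the sources used here, and the part of SKP1 reads in the TCF7 counts was not tested.

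LEF1, the lowest of the 9, was also higher in shAPC but on few molecules. Its UMIs were 7 in shScr day 3 (0.176 CPM), 14 in shAPC day 3 (0.401 CPM), 17 in shScr day 7 (0.544 CPM) and 34 in shAPC day 7 (1.20 CPM). The levels climbed in this order, and neighbouring libraries had overlapping intervals. At day 3 the log2 ratio of shAPC over shScr was 1.19 (-0.22 to 2.74), which includes no difference, and at day 7 it was 1.13 (0.25 to 2.07). Between the days LEF1 differed more than any other member, with a log2 ratio of day 7 over day 3 of 1.63 (0.29 to 3.14) in shScr and 1.58 (0.64 to 2.59) in shAPC, or 1.88 relative to the median gene in shAPC.

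TCF7L2 held most TCF/LEF transcripts and, in its plain ratios, differed modestly between the shRNAs and between the days. Its counts were 327 in shScr day 3 (8.22 CPM), 384 in shAPC day 3 (11.0 CPM), 340 in shScr day 7 (10.9 CPM) and 446 in shAPC day 7 (15.7 CPM). shScr day 3 was the lowest library, shAPC day 7 the highest, and the other two did not differ beyond their intervals. The shAPC over shScr log2 ratio was 0.42 (0.20 to 0.64) at day 3, of which 0.07 remained relative to the median gene, and 0.53 (0.32 to 0.73) at day 7. Day 7 was above day 3 by 0.41 (0.18 to 0.63) in shScr and 0.51 (0.31 to 0.71) in shAPC, or 0.82 relative to the median gene in shAPC.

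TCF7L1 (TCF3), the repressor of the family, showed no difference beyond counting error in its ratios of shAPC over shScr or of day 7 over day 3. It was counted 76, 79, 63 and 53 times in library order, or at 1.91, 2.26, 2.02 and 1.86 CPM. The log2 ratio of shAPC over shScr was 0.24 (-0.23 to 0.72) at day 3 against -0.11 (-0.67 to 0.44) at day 7, and -0.11 at both days relative to the median gene. Day 7 over day 3 in shAPC was -0.28 (-0.81 to 0.24), or 0.03 relative to the median gene.

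The make-up of the 4 factors does not depend on the scaling factor of a library. They summed to 457 UMIs in shScr day 3, 568 in shAPC day 3, 454 in shScr day 7 and 618 in shAPC day 7. TCF7L2 gave between 67.6% and 74.9% of them. The share of TCF7 was 10.3% (7.65 to 13.4, exact binomial) in shScr day 3 against 16.0% (13.1 to 19.3) in shAPC day 3. At day 7 it was 7.49% (5.24 to 10.3) in shScr against 13.8% (11.1 to 16.7) in shAPC, intervals that did not overlap, while those of day 3 met by a narrow margin. The mean over cells of CPM gave TCF7 19.3%, 31.9%, 19.3% and 20.4% in library order, so the gap between shScr and shAPC at day 7 was nearly absent there. LEF1 made up 1.53% and 2.46% at day 3 and 3.74% and 5.50% at day 7, in shScr and shAPC respectively. The share of TCF7L1 was 16.6% and 13.9% at day 3 and 13.9% and 8.58% at day 7, lowest in the library where TCF7 and LEF1 together were highest. The shares are parts of the same total, so a higher share of some factors lowers the others by construction. In CPM, TCF7L1 did not differ beyond counting error.

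**Figure D2:**
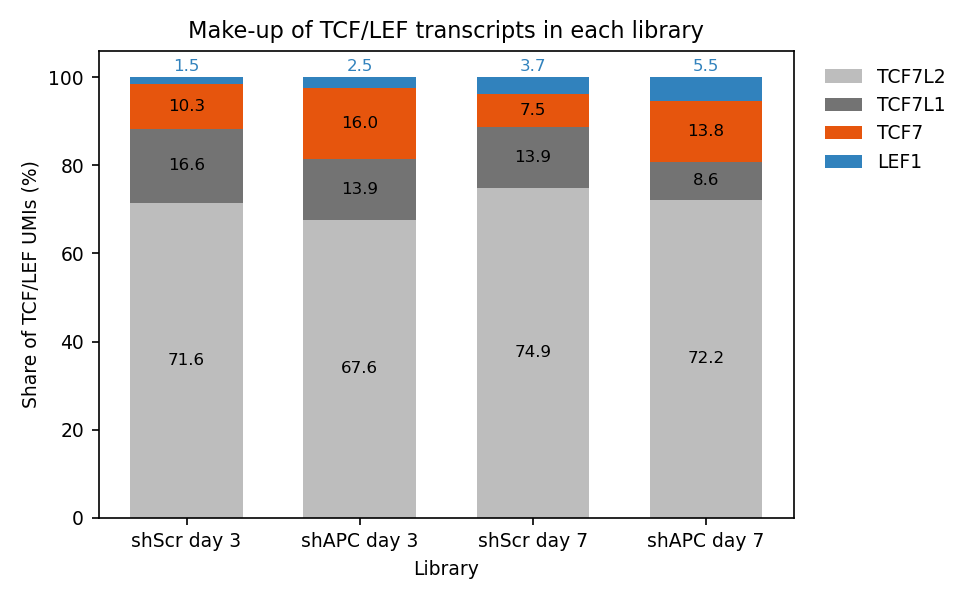
Share of the UMIs of the 4 TCF/LEF factors (vertical axis, %) that came from each factor in each library, stacked with TCF7L2 at the bottom and LEF1 at the top. TCF7 takes 16.0% and 13.8% in the shAPC libraries against 10.3% and 7.5% in the shScr libraries, and TCF7L2 takes at least 67.6% in all 4.

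The corepressor TLE3, which binds the factors and recruits histone deacetylases, was higher in shAPC at both days. Its counts were 220 in shScr day 3 (5.53 CPM), 367 in shAPC day 3 (10.5 CPM), 138 in shScr day 7 (4.42 CPM) and 220 in shAPC day 7 (7.73 CPM). Both shAPC libraries were above both shScr libraries without overlap of the intervals. The log2 ratio was 0.93 (0.68 to 1.17) at day 3, or 0.57 relative to the median gene, and 0.81 (0.49 to 1.13) at day 7. Day 7 was below day 3 by a log2 ratio of -0.32 (-0.64 to -0.01) in shScr and -0.44 (-0.69 to -0.20) in shAPC. Relative to the median gene these were -0.37 (-0.68 to -0.05) and -0.14 (-0.38 to 0.11). The interval in shAPC thus includes no difference from the median gene.

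TLE1, the paralog of TLE3, was more abundant and differed less. It was counted 552 times in shScr day 3 (13.9 CPM), 713 in shAPC day 3 (20.4 CPM), 442 in shScr day 7 (14.2 CPM) and 474 in shAPC day 7 (16.7 CPM). Only shAPC day 3 stood clear of the other 3 libraries. The shAPC over shScr log2 ratio was 0.56 (0.39 to 0.72) at day 3, or 0.21 relative to the median gene, and 0.24 (0.05 to 0.43) at day 7, where it turned to -0.22 if the mean over cells of each cell's CPM was taken in place of the sum. Day 7 over day 3 in shAPC was -0.29 (-0.46 to -0.12) for TLE1, or 0.01 relative to the median gene. As a share of TLE1 and TLE3 together, which is free of scaling, TLE3 was 28.5% (25.3 to 31.8) in shScr day 3 and 34.0% (31.2 to 36.9) in shAPC day 3. At day 7 that share was 23.8% (20.4 to 27.5) in shScr and 31.7% (28.2 to 35.3) in shAPC, and these day 7 intervals did not overlap.

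Among the coactivators BCL9L was the most abundant and showed its widest gap between days. It was counted 1303 times in shScr day 3 (32.7 CPM), 1530 in shAPC day 3 (43.8 CPM), 580 in shScr day 7 (18.6 CPM) and 686 in shAPC day 7 (24.1 CPM). The 4 intervals did not overlap one another, and both day 7 libraries were the lower ones. Day 7 over day 3 gave a log2 ratio of -0.82 (-0.96 to -0.68) in shScr and -0.86 (-0.99 to -0.73) in shAPC, or -0.86 and -0.55 relative to the median gene. shAPC was above shScr by 0.42 (0.31 to 0.53) at day 3 and by 0.38 (0.22 to 0.54) at day 7. Relative to the median gene, BCL9L was at 0.07 (-0.04 to 0.18) at day 3, an interval that includes no difference from it.

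BCL9, the other adaptor between beta-catenin and PYGO proteins, was counted 60, 59, 56 and 45 times in library order (1.51, 1.69, 1.79 and 1.58 CPM). Every pair of these intervals overlapped. BCL9L made up between 91.2% and 96.3% of BCL9 and BCL9L UMIs. The log2 ratio of BCL9 in shAPC over shScr was 0.16 (-0.38 to 0.71) at day 3 against -0.18 (-0.78 to 0.41) at day 7, with -0.19 relative to the median gene at day 3.

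PYGO2, a PHD finger protein that reads methylated histone H3, had a higher plain ratio in shAPC at day 3. At day 7 it did not differ beyond counting error. Its counts were 187 in shScr day 3 (4.70 CPM), 238 in shAPC day 3 (6.81 CPM), 136 in shScr day 7 (4.35 CPM) and 119 in shAPC day 7 (4.18 CPM). shAPC day 3 stood above the other 3, which overlapped. The log2 ratio of shAPC over shScr was 0.54 (0.25 to 0.82) at day 3, of which 0.18 remained relative to the median gene, and -0.06 (-0.43 to 0.31) at day 7. The day 7 over day 3 ratio was -0.11 (-0.44 to 0.22) in shScr and -0.70 (-1.03 to -0.38) in shAPC, or -0.40 relative to the median gene in shAPC. PYGO2 overlaps SHC1 on the same strand over 1556 bases at the 5′ side of PYGO2, away from the 3′ end of PYGO2. The 3′ end of SHC1 lies in that stretch, and the part of SHC1 reads in the PYGO2 counts was not tested.

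Counted over the list, 2 of 9 members (TCF7 and LEF1) were at least 2-fold higher in shAPC at day 3 and none lower, beside 10.3% of all genes that were higher and 0.91% that were lower by that much. At day 7 the same 2 genes passed and none was lower, beside 5.11% and 2.67% of all genes. Measured from the median gene, 0 members were 2-fold apart at day 3, beside 7.67% of all genes. The median log2 ratio of the 9 members was 0.54 at day 3 against 0.35 for all genes, and 0.38 at day 7 against -0.00. At day 3 the interval of 6 members lay above 0 and of none below, where 58.9% and 8.67% of all genes did, and at day 7 again 6 lay above and none below, where 23.7% and 27.2% did.

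Relative to the median gene, the interval was above it for 3 members at day 3 (TCF7, TLE1 and TLE3), beside 25.4% of all genes, and below it for none, beside 28.2%. The same day 3 counts of members are near the share among all genes, and the day 7 count of 6 is further from it. Whether an interval leaves 0 out depends on the number of UMIs, so a share over genes of other abundance is a rough yardstick. No statement about the list as a whole beyond these counts was tested.

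Between the days, LEF1 was the single member at least 2-fold higher, beside 2.01% of all genes in shScr and 1.72% in shAPC, and no member was at least 2-fold lower, beside 2.12% and 8.56%. In shScr the interval was above 0 for LEF1 and TCF7L2 and below 0 for TLE3 and BCL9L, beside 26.9% and 19.6% of all genes, and the same genes were above and below the median gene, beside 22.8% and 23.2%. In shAPC it was above 0 for the same 2 factors and below 0 for TLE1, TLE3, BCL9L and PYGO2, beside 9.48% and 52.9%. Relative to the median gene in shAPC, TCF7, LEF1 and TCF7L2 were above it and BCL9L and PYGO2 below it, beside 25.7% and 27.2%. The members' median was 0.03 in shScr and -0.28 in shAPC, against 0.04 and -0.31 for all genes. The shAPC over shScr and the day comparisons share libraries and are not independent of each other.

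**Figure D3:**
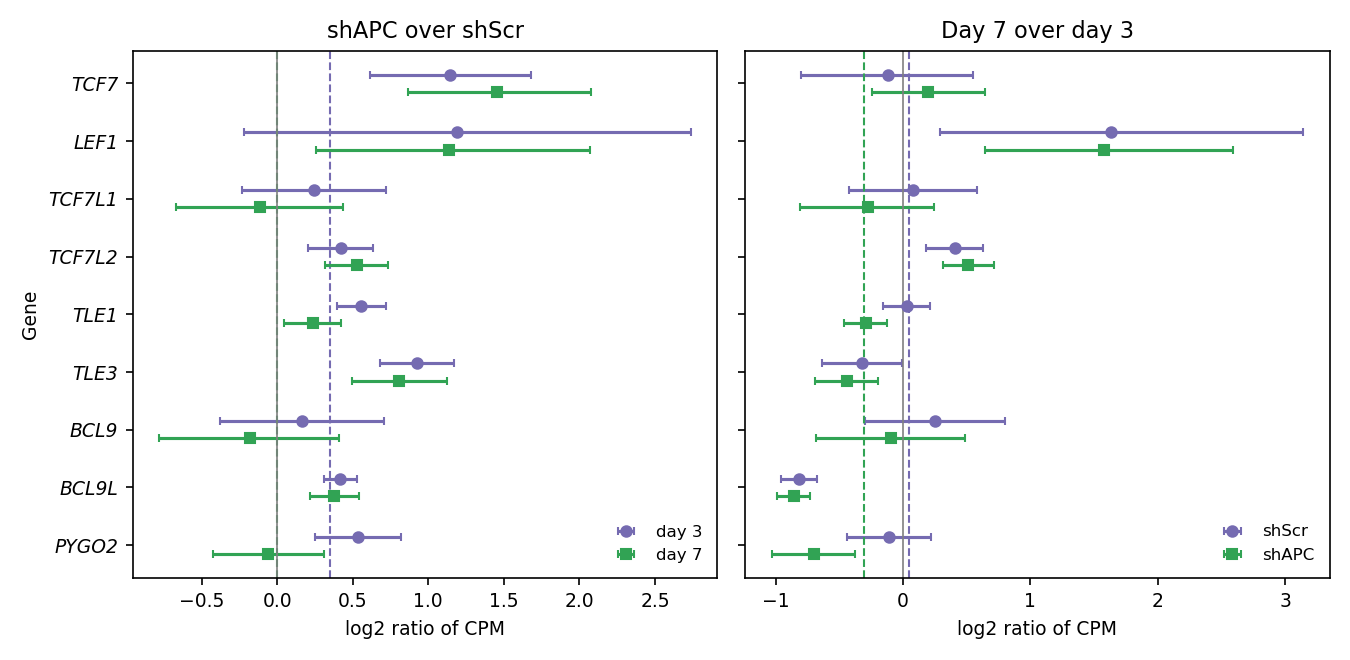
log2 ratio of CPM of the 9 genes (vertical axis), shAPC over shScr at day 3 and day 7 on the left and day 7 over day 3 in shScr and shAPC on the right, with bars for the exact conditional binomial 95% interval. Dashed lines are the medians of all genes in the same colour and the grey line is 0. TCF7 lies right of both dashed lines on the left (1.14 and 1.46), LEF1 is furthest right on the right (1.63 and 1.58), and BCL9L is furthest left there (-0.82 and -0.86).

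Beside the members, 24 other genes that act with TCF/LEF proteins were counted, chosen as a list of beta-catenin partners, TLE relatives, deacetylases, acetyltransferases and kinases. Their median log2 ratio of shAPC over shScr was 0.19 at day 3 and -0.08 at day 7, or -0.16 and -0.08 relative to the median gene. At day 3 no partner was 2-fold apart on the plain scale, beside 10.3% of all genes higher and 0.91% lower, and 1 was relative to the median gene (TNIK), beside 7.67% of all genes. At day 7 1 partner was higher and 1 lower, beside 5.11% and 2.67%. TLE2 was higher, with 24 UMIs in shAPC against 5 in shScr (log2 ratio 2.40, 0.98 to 4.14), and TNIK, a kinase that binds TCF7L2, was lower, with 90 against 212 (-1.10, -1.47 to -0.74). TNIK was lower at day 3 too, with 129 UMIs against 241 (-0.71, -1.03 to -0.40, or -1.07 relative to the median gene). TLE2 at day 3 had 11 against 13.

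Beta-catenin itself (CTNNB1), the protein that APC helps to degrade, had an mRNA log2 ratio of 0.06 (-0.01 to 0.13) at day 3, which is -0.29 (-0.36 to -0.22) relative to the median gene, and -0.38 (-0.47 to -0.30) at day 7. It was thus below the median gene at both days. JUP, its close relative, was lower at day 7 than at day 3 in shAPC by a log2 ratio of -1.30 (-1.78 to -0.83). Measured from the median gene JUP was at -0.99 and no longer past 2-fold. TLE2 was higher there (1.42, 0.34 to 2.60, or 1.73 relative to the median gene). Among all genes 8.56% were 2-fold lower and 1.72% higher in that comparison. In shScr no partner with at least 20 UMIs over both days was past 2-fold between them.

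The short Groucho relative AES (TLE5), which lacks the C-terminal repeat domain of the full-length TLE proteins, gave most UMIs of that family. AES was 80.5% of TLE family UMIs (AES, TLE1, TLE2, TLE3 and TLE4) in shScr day 3, 74.6% in shAPC day 3, 80.9% in shScr day 7 and 73.6% in shAPC day 7. TLE1 and TLE3 together with TLE4 made up nearly all the rest. The log2 ratio of AES was -0.09 (-0.14 to -0.04) at day 3, or -0.45 relative to the median gene, and -0.27 (-0.33 to -0.21) at day 7. TLE4 was at 0.12 (-0.01 to 0.26), or -0.23 relative to the median gene, and 0.24 (0.08 to 0.40). Measured inside the family, TLE3 was 2.51% and 4.71% at day 3 and 2.21% and 4.24% at day 7 in shScr and shAPC.

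The remaining partners named by rule stayed within 2-fold at both days. The acetyltransferase CREBBP had a log2 ratio of 0.68 (0.52 to 0.84) at day 3, or 0.33 relative to the median gene, and 0.12 (-0.06 to 0.30) at day 7. Its paralog EP300 was at 0.37 and 0.32, the corepressor CTBP2 at 0.43 and 0.21, and CTBP1 at 0.11 and -0.08. The deacetylase HDAC1 was at -0.09 (-0.23 to 0.05) and -0.29 (-0.46 to -0.12), and PYGO1, the relative of PYGO2, at 0.05 and -0.29. Their day 3 values relative to the median gene were 0.02 for EP300, 0.08 for CTBP2, -0.24 for CTBP1, -0.44 for HDAC1 and -0.30 for PYGO1, so that the last 3 had negative values at both days.

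Within libraries the factors were sparse. A UMI of TCF7 was found in 44 of 1116 (3.94%), 75 of 788 (9.52%), 32 of 2600 (1.23%) and 77 of 1478 cells (5.21%) in library order. These shares follow depth as well as level. After thinning each cell to 20000 UMIs, a depth added after seeing the data, the shares were 2.03%, 4.33%, 1.63% and 5.76% of 689, 554, 799 and 781 cells. The libraries hold 1 cell line and so no cell type that should lack these genes, and the share that free RNA gives was not tested.

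At that depth, TLE3 was found in 10.4%, 19.5%, 9.26% and 14.1% of cells in library order. TCF7L2 was found in 15.2%, 21.1%, 19.3% and 27.9%, LEF1 in 0.290%, 1.08%, 1.00% and 2.43%, and BCL9L in 48.2%, 55.1%, 32.3% and 36.9%. The order of libraries for TCF7, TLE3 and LEF1 was close to that of the CPM values. TCF7L1 (3.63%, 5.05%, 3.63% and 3.71%), BCL9 (3.05% to 3.75%) and PYGO2 (7.76% to 12.8%) differed less. At 2000 UMIs, the depth set first, TCF7 remained in 2, 8, 5 and 4 cells and LEF1 in 0, 0, 0 and 1, too few to order the libraries.

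Cells rarely held UMIs of several factors. None of the 4 was detected in 799 of 1116, 469 of 788, 2253 of 2600 and 1045 of 1478 cells in library order. TCF7 and LEF1 were found in the same cell 1, 4, 0 and 0 times in this order, and 3 or more factors in 3, 8, 1 and 1 cells. The product of the shares of cells would give 0.28, 1.14, 0.21 and 1.62 for TCF7 with LEF1. For TCF7 with TCF7L2 it would give 9.86, 23.0, 3.27 and 17.7, and 17, 38, 7 and 26 were found. LEF1 with TCF7L2 was found in 6, 5, 1 and 17, against 1.57, 3.69, 1.74 and 7.11. These counts were not thinned, and in shScr day 7 cells with TCF7 had a median of 28246.5 UMIs, against 1330 in all. In shAPC day 7, thinned to 20000 UMIs, AXIN2 was found in 8 of 64 cells with a TCF7 or LEF1 UMI (12.5%, 5.55 to 23.2) and in 51 of 717 without (7.11%, 5.34 to 9.25), which was not distinguishable at this depth. The same comparison for NKD1 was 4 of 64 (6.25%) against 18 of 717 (2.51%). In shAPC day 3 AXIN2 was found in 2 of 29 cells with such a UMI (6.90%, 0.85 to 22.8) and in 12 of 525 without (2.29%, 1.19 to 3.96). NKD1 was found there in 0 of 29 and 2 of 525.

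Cells of at least 2000 UMIs were put in a cycling class when 2 or more UMIs of MKI67, TOP2A, CENPF, NUSAP1 and BIRC5, genes of dividing cells, remained after thinning to 2000. The class held 10.9% of cells in shScr day 3, 14.1% in shAPC day 3, 13.1% in shScr day 7 and 7.73% in shAPC day 7. TCF7 was at 2.48 CPM in cycling cells against 1.01 in the others in shScr day 3, and at 6.14 against 1.99 in shAPC day 3. At day 7 it was at 1.88 against 0.83 in shScr and at 4.44 against 2.82 in shAPC. The 4 libraries thus had the same order, with a log2 ratio of cycling over other cells of 1.29 (0.11 to 2.33), 1.62 (0.93 to 2.29), 1.17 (-0.30 to 2.45) and 0.65 (-0.46 to 1.61).

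The all-gene medians of that ratio were 0.28, 0.04, 0.13 and 0.19 in the same order. At day 3 the interval was above 0 for TCF7, TLE1 and TLE3 in shScr, beside 38.4% of all genes, and for TCF7 alone in shAPC, beside 25.4%. At day 7 it was above 0 for TCF7L1 in shScr, beside 28.3%, and for LEF1 in shAPC, beside 26.3%. BCL9L in shScr day 7 was the single member with an interval below 0 (-0.65, -1.11 to -0.22), beside 10.7% of all genes there and 6.59%, 16.6% and 6.81% in shScr day 3, in shAPC day 3 and in shAPC day 7. Outside the cycling class, the shAPC over shScr log2 ratio of TCF7 was 0.98 at day 3 and 1.76 at day 7, that of LEF1 1.24 and 0.93, and that of TLE3 1.04 and 0.83. The day 7 interval of LEF1 then included 0 (-0.06 to 1.98), as its day 3 interval did in all cells.

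**Figure D4:**
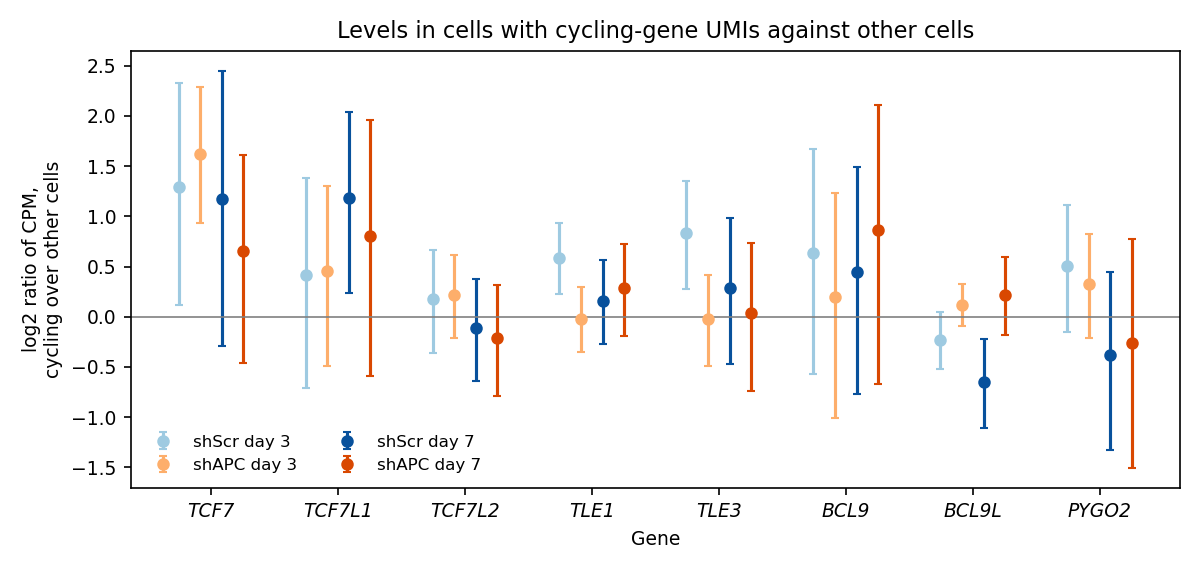
log2 ratio of CPM in cells of the cycling class over other cells (vertical axis) for 8 of the 9 genes, with 1 point per library and bars for the 95% counting interval. LEF1 is left out of the plot for its few UMIs. TCF7 is above 0 in all 4 libraries, at 1.29, 1.62, 1.17 and 0.65, and TCF7L2 stays between -0.21 and 0.22.

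The genes whose 4 library levels were most like a member's were sought among 12395 genes with at least 20 UMIs in every library, by the Euclidean distance of log2 CPM centred over the libraries. For TCF7 they were AC040170.1 (0.09) and CCL28 (0.12), for TCF7L2 PKP2 (0.02) and ITGA1 (0.05), and for TLE3 MAPK6 (0.07) and SEC31B (0.08). TLE1 was nearest to ELMOD3 and ZNF514, BCL9L to VPS16 and FBXL18, TCF7L1 to ACOT13 and CEBPZOS, BCL9 to FDX1 and ITFG1, and PYGO2 to ARMC7 and MIER3. With only 4 points per gene such nearness is common, and LEF1 was under the minimum.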

How the data were processed

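The authors aligned reads of droplet 3′ libraries to GRCh38 and counted them with Cell Ranger (STAR aligner, per the submitters' processing notes). They deposited raw UMI counts per gene and cell barcode for the 4 libraries, over barcodes called as cells. The 10x kit is v2 in the labels and V3 in the methods, and the annotation release and cell calling settings are not given in the sources used here. The study's imputation and batch correction were not applied.

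From the counts, cells were kept as described above (mitochondrial limit 5%), UMIs were summed per library, and CPM were computed with exact Poisson 95% intervals. Ratios have exact conditional binomial intervals and shares exact binomial (Clopper-Pearson) intervals. A gene at 0 in a library took a floor of 3 counts, and no ratio is given where both libraries had 3 or fewer. With 1 library per group no p-value was computed. Doublets were not removed. Analyses used Python 3.11.15, numpy 2.4.6, scipy 1.17.1 and pandas 2.3.3. TMM factors came from edgeR 4.0.16 and size factors from DESeq2 1.42.0 in R 4.3.3, both as alternative scalings, and no test of either tool was run. The ratio code was tested on simulated data. Coordinates are from GENCODE 44. The members and lists (partner, epithelial, intestinal, mesenchymal, T cell, red cell and cycling genes) were chosen with earlier results of these data known. Named genes were the members, APC, AXIN2, NKD1, 11 listed partners, any partner past 2-fold and the 2 nearest genes per member. AES stands for TLE5, its symbol in the files. Alternatives covered scaling, the limits on cells, totals, the fold threshold, thinning depth and, added after seeing the data, cells outside the cycling class.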

Additional observations from a re-analysis of the deposited data

Results flagged for a closer look

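Among the 9 members and 24 partners, 26 plain log2 ratios of 19 genes had opposite signs between the days (shAPC over shScr) or between the shRNAs (day 7 over day 3). None of these differences was tested, with 1 library on each side. In 5 of the 26, all in partners, both intervals left 0 out, and 9 of the 26 were of opposite sign also relative to the median gene. The share of all genes with such a change of sign was not computed, so these counts have no background to be read against. The median gene itself went from 0.35 at day 3 to -0.00 at day 7 in shAPC over shScr. In day 7 over day 3 it was at 0.04 in shScr and -0.31 in shAPC.

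Among the members, the shAPC over shScr ratio went from 0.24 at day 3 to -0.11 at day 7 for TCF7L1 (difference -0.36), from 0.16 to -0.18 for BCL9 (-0.34) and from 0.54 to -0.06 for PYGO2 (-0.59). The day 7 over day 3 ratio was -0.12 in shScr and 0.20 in shAPC for TCF7 (difference 0.32), 0.03 and -0.29 for TLE1 (-0.32), 0.08 and -0.28 for TCF7L1 (-0.36) and 0.25 and -0.09 for BCL9 (-0.34). Measured from the median gene, TCF7L1 and BCL9 had 1 sign in each of these pairs.

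The 5 partner effects whose intervals both left 0 out were CREBBP at day 7 over day 3 (0.28 in shScr and -0.28 in shAPC, difference -0.56), CDC73 in both kinds of comparison (0.27 at day 3 and -0.29 at day 7, and 0.23 in shScr and -0.34 in shAPC, -0.57 each), MED12 in shAPC over shScr (0.26 and -0.49, -0.75) and DAXX at day 7 over day 3 (0.19 and -0.23, -0.43). Measured that way only the day comparison of CDC73 (0.19 and -0.03) kept opposite signs.

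The other partners, in shAPC over shScr at day 7 minus day 3, differed by 2.45 for TLE2, -0.77 for JUP, -0.45 for CTNNB1, -0.34 for PYGO1, -0.19 for CTBP1, -0.43 for DAXX and 0.019 for TBL1XR1. Of these CTNNB1 (-0.29 and -0.38), PYGO1 (-0.30 and -0.29) and CTBP1 (-0.24 and -0.08) had negative values from the median gene at both days. In day 7 over day 3, shAPC minus shScr, they differed by 2.45 for TLE2, -0.45 for CTNNB1, -0.34 for PYGO1, -0.22 for CTBP2, -0.39 for NLK, -0.39 for TNIK and -0.18 for LDB1. CDC73, MED12, DAXX, NLK, TBL1XR1 and LDB1 are named here after their values were seen. TLE2 rests on 13, 11, 5 and 24 UMIs in library order.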

How the results depend on the processing

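Of the members' log2 ratios under the alternatives, 254 of 288 stayed within the interval of the reported value and 34 left it. The sign changed in 37, of which 34 belong to ratios whose reported interval includes 0 (mainly BCL9, TCF7L1, TLE1 and PYGO2) and 3 to TLE1 ratios whose interval does not. Scaling mattered most at day 3: the median of the members in shAPC over shScr was 0.54, and 0.16 with TMM, 0.17 with size factors of DESeq2 and 0.18 when taken from the median gene, and 0 members in place of 2 were then 2-fold higher, TCF7 being at 0.76 and TLE3 at 0.55 with TMM. Outside the cycling class 1 member was past 2-fold at day 7. With the mean over cells of CPM, in which shallow cells weigh as much as deep ones, the day 7 ratio of TCF7 was 0.43, of LEF1 2.80 and of BCL9 1.52, that of TLE1 turned to -0.22, 2 members were past 2-fold between the days in shScr and 2 in shAPC, TCF7 between the days in shAPC was -0.32, and TCF7L2 made up 66.0%, 55.4%, 69.5% and 64.6% of TCF/LEF UMIs. At 1.5-fold, under the reported scaling, the counts between the days were 2 in shScr and 3 in shAPC, beside 14.1% and 30.5% of all genes. The share of all genes past 2-fold was not computed for TMM, DESeq2 size factors, the mean over cells of CPM or cells outside the cycling class. The counts of members past 2-fold in those settings thus have no background to be read against. TLE1 at day 7 over day 3 in shAPC changed sign, to 0.012 under TMM and to 0.013 under DESeq2 size factors. The causes of these moves were not tested. Among all genes of at least 20 CPM, 4.85% were 2-fold apart at day 3 and 2.82% at day 7, against 11.2% and 7.79% at the lower minimum. The shares of cells moved with thinning depth by construction. LEF1 rests on 7 to 34 UMIs per library, which limits what can be seen of it. No paired analysis was possible because each group holds 1 library and the labels give no replicate numbers.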
